A study of Mus musculus with 2 samples.

Results

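Alveolar type 2 (AT2) cells that carried mRNA of Slc26a4, which encodes the anion exchanger pendrin, were examined in the lungs of allergen-challenged mice. A barcode was taken when it had at least 500 genes, at most 15% mitochondrial UMIs and at least 5 of 8 AT2 markers (Lamp3, Slc34a2, Abca3, Etv5, Lpcat1, Hc, S100g and Napsa). At most 1 of 7 endothelial, mesenchymal, leukocyte, ciliated and mesothelial markers was allowed. AT2 cells in 3 other states were left out: those with 3 or more Cxcl3 and Cxcl5 UMIs, with 3 or more of 6 interferon-response genes, or with 3 or more of 5 genes of the transition towards AT1 cells. Of the AT2 cells that remained, those with at least 2 UMIs of Slc26a4 were counted, which gave 3422 of 21547 barcodes, 1443 of them WT and 1979 KO-labelled. The cells were thus chosen by their UMI counts of Slc26a4 and of the gating genes, measured in these same libraries. They are called Slc26a4 AT2 cells below, and the AT2 cells that passed the same gates with 0 UMIs of Slc26a4, 687 and 1207 cells, are called Slc26a4-zero AT2 cells.

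The mice were C57B6/J, either WT or labelled as knockouts of Plaur, which encodes uPAR, the receptor of urokinase, with 8 mice per genotype. All had received LPS with ovalbumin on days 0 and 7 and ovalbumin aerosol on day 14, so an unchallenged lung is not among the samples. CD45.2-negative cells were sorted from digested lungs and made into 1 droplet-based 3' single-cell library per genotype, although the labels give the cell type as a lysate of whole lung. How many mice went into each library, and whether the knockout mice carry further alleles, is not given in the sources used here. With 1 library per genotype no difference between the libraries has a replicate check, and every interval below is a 95% interval for counting error alone.

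Pendrin exchanges chloride for bicarbonate, iodide and thiocyanate at the apical face of epithelia. In airway epithelium its gene is known to be induced by IL-4 and IL-13, the cytokines of type 2 immunity that signal through STAT6, and by IL-17A. Retnla, which encodes the secreted protein RELMα, and Chil1, which encodes a chitinase-like lectin, are also known from type 2 lung inflammation, while Cxcl15 (lungkine) is a chemokine made by lung epithelium without challenge. AT2 cells make surfactant, store it in lamellar bodies and can give rise to AT1 cells.

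Stretches before the start sites of 4 genes are printed. Slc26a4 defines the cells, and Retnla, Cxcl1 and Cxcl2 were far higher in Slc26a4 AT2 cells than in Slc26a4-zero AT2 cells. Each was printed because it held the 1 motif sought in it, which is marked below. Lcn2, Cish and Socs1 were also considered but lacked the motif sought in them, which for Lcn2 was the NF-κB-type one. Other high genes with a match, such as Slc5a1, Tnfrsf9 and Steap4, are not printed. The sequences are from RefSeq (GRCm38.p6), 100 bases each, 5′ to 3′ on the gene's strand. Capitals in Retnla mark TTC and GAA with any 4 bases between them, the spacing that STAT6 prefers, which begin at -145 from the RefSeq start (chr16:48842419-48842518, plus strand). Capitals in the other 3 mark GGGA and CC with any 4 bases between them on either strand, a short form of the NF-κB site. They begin at -113 in Slc26a4 (chr12:31560043-31560142, minus strand), at -90, -71 and -70 in Cxcl1 (chr5:90891095-90891194, plus strand) and at -97 and -96 in Cxcl2 (chr5:90903749-90903848, plus strand).
Retnla: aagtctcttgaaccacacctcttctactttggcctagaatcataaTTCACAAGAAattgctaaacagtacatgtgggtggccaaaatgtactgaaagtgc
Slc26a4: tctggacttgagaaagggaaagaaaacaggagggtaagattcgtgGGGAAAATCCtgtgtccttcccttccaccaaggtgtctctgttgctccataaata
Cxcl1: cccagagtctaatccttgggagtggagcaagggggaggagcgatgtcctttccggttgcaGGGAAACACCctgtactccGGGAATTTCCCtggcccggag
Cxcl2: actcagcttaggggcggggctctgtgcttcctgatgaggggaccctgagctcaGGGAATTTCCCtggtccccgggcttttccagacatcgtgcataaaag
The matches at -71 and -70 in Cxcl1, and those in Cxcl2, overlap each other on opposite strands.

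Both motifs were looked for in the 250 bases before the start of 22 genes: the 4 markers Slc26a4, Retnla, Chil1 and Cxcl15, the other genes that stood highest in Slc26a4 AT2 cells, and Cxcl2, Lcn2, Il4ra and Socs1. A RefSeq window was found for 20 of them, all but Malt1 and Cd14. The STAT6-type motif (TTC, 4 bases, GAA), which reads the same on both strands, was in the windows of Retnla and Lcn2. It was in 5.85% of all 32851 windows of this length. The NF-κB-type motif (GGGA, 4 bases, CC) was in the windows of 10 genes (Chil1, Cxcl1, Cxcl2, H2-Q6, H2-Q7, Pim1, Slc26a4, Slc5a1, Steap4 and Tnfrsf9) and in 17.6% of all windows. The shorter spacing TTCNNNGAA was in the windows of Kcnmb2, Steap4 and Tnfrsf9 and in 7.02% of all. Motifs and genes were picked after the values were seen, so these are descriptions of the letters and not of binding.

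Slc26a4 AT2 cells had a median of 6307 UMIs and 2151 genes per cell in WT, and of 6221 UMIs and 2057 genes in KO-labelled cells. Slc26a4-zero AT2 cells were somewhat shallower, with medians of 5747 and 5218 UMIs. The libraries held 57028943 and 51529241 UMIs in all and shared 30 barcodes, of which 0 were Slc26a4 AT2 cells in both. A doublet caller, which was not part of the selection, marked 2.22% of the Slc26a4 AT2 cells of the WT library and 0.707% of those of the KO-labelled library. Transcripts of the Y chromosome were present and Xist was near 0 in both.

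Plaur itself was sparse in AT2 cells, and it was not lower in the AT2 cells labelled as knockout. Slc26a4 AT2 cells held 20 Plaur UMIs in WT, a level of 2.13 CPM (counts per 1000000 UMIs, both summed over the cells of a group). KO-labelled Slc26a4 AT2 cells held 195 Plaur UMIs, 15.4 CPM. Slc26a4-zero AT2 cells held 1.24 and 19.02 CPM. In cells with more Plaur it was lower in the KO-labelled library. Mesenchymal cells had 110.7 CPM in WT and 69.5 CPM in KO-labelled, mesothelial cells 142 and 87.8 CPM, immune cells 322 and 123 CPM and endothelial cells 193 and 180 CPM. Ciliated cells, at 19.8 and 46.4 CPM, and airway secretory cells, at 15.2 and 21.3 CPM, went the other way. Plaur (ENSMUSG00000046223) lies on chromosome 7 from 24462484 to 24475968. The 3' tags do not tell whether the deleted part was transcribed, and the labels do not name it, so the library is called KO-labelled throughout.

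Sftpc, the gene of surfactant protein C, which the selection had not used, stood at 156370 CPM in WT and 166720 CPM in KO-labelled Slc26a4 AT2 cells, against 536 and 832 CPM in mesenchymal cells of the same libraries. Low levels of other cells' markers were partly fixed by the selection, which had used Cldn5 of the endothelial and Krt19 of the mesothelial list and other markers of the same cells. In Slc26a4 AT2 cells 8 endothelial genes summed to 39.3 and 33.2 CPM and 6 mesothelial genes to 16.0 and 12.8 CPM, of which Krt19 gave 13.0 and 11.8 CPM. Of 9 mesenchymal genes, 7 were under 10 CPM in both libraries, and Sparc made up most of the summed 223 and 202 CPM. Of 13 immune genes, 10 were under 10 CPM in both, and the sums of 22272 and 20464 CPM were nearly all Lyz2, a lysozyme gene that AT2 cells also express. Of 10 AT1 genes, 5 were under 10 CPM in both libraries. Their list summed to 613 and 591 CPM, against 693 and 693 CPM in Slc26a4-zero AT2 cells. Of 9 ciliated genes, 5 were under 10 CPM in both, with sums of 143 and 115 CPM against 186 and 126 CPM. In the KO-labelled library 5 ciliated genes were at least 2-fold higher than in Slc26a4-zero AT2 cells, and in WT 0 were. Foxi1, the factor that defines pendrin-bearing ionocytes elsewhere, had 0 UMIs in both libraries.

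Airway secretory genes had the highest sums after the immune list, 3957 and 2663 CPM in Slc26a4 AT2 cells. Scgb1a1, the secretoglobin of club cells, stood at 3017 CPM in WT and 1830 CPM in KO-labelled Slc26a4 AT2 cells, and at 17496 and 8341 CPM in Slc26a4-zero AT2 cells. Most of these UMIs lay in few barcodes, although 98.7% of WT and 63.7% of KO-labelled Slc26a4 AT2 cells had at least 1. The 5 highest WT Slc26a4 AT2 cells held 60.8% of their group's UMIs. In the KO-labelled Slc26a4 AT2 cells 1 cell held 74.99% of them, and in Slc26a4-zero AT2 cells the 14 WT and 13 KO-labelled cells with 100 or more Scgb1a1 UMIs held 94.4% and 96.5%. Barcodes with at least 2 of Cyp2f2, Scgb3a2, Bpifb1 and Scgb3a1 made up 3.47% and 0.354% of Slc26a4 AT2 cells and 4.66% and 0.497% of Slc26a4-zero AT2 cells. Values without them are given below where they differ.

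Slc26a4 (ENSMUSG00000020651, chromosome 12 from 31519827 to 31559969, minus strand) was widespread in the AT2 cells left by the gates. Slc26a4 AT2 cells were 59.7% (57.7 to 61.7) of 2417 such WT cells and 55.6% (53.9 to 57.2) of 3560 such KO-labelled cells. When each cell was thinned to 3000 UMIs and 2 Slc26a4 UMIs were again asked for, the shares were 47.1% and 47.5%, so the small difference between the libraries was not seen at equal depth. Free RNA was low: 0.389% of 1542 WT and 0.454% of 441 KO-labelled mesenchymal cells, with medians of 4864 and 4710 UMIs, had 2 or more Slc26a4 UMIs. In airway secretory cells the shares were 5.28% and 3.90%.

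The number of Slc26a4 UMIs per cell had no gap at the threshold. The median Slc26a4 AT2 cell held 7 UMIs in WT and 10 in KO-labelled cells, and the highest held 120 and 138. Cells with 20 or more made up 9.56% and 12.5% of the AT2 cells left by the gates. Just inside the threshold, 186 WT and 229 KO-labelled cells had 2 UMIs, and just outside it 287 and 374 cells had 1. Retnla stood at 592 and 951 CPM in the former and at 423 and 279 CPM in the latter, and Malt1 at 173 and 134 CPM against 111 and 88.3 CPM. The step across the threshold was thus larger for Retnla in the KO-labelled than in the WT library. Barcodes of airway transcripts, 3.83% of the WT and 0.267% of the KO-labelled cells with 1 UMI, were not left out here.

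**Figure D1:**
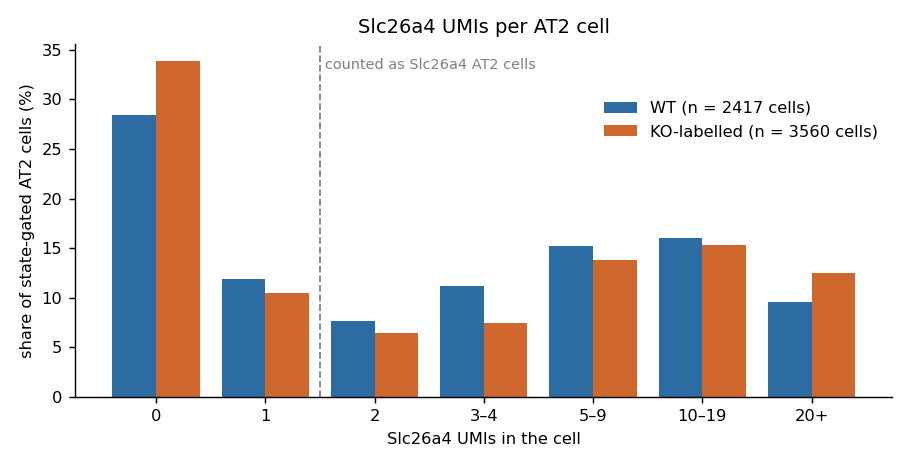
Share of gated AT2 cells (percent, y axis) by the number of Slc26a4 UMIs in the cell (x axis) for the WT library (blue) and the KO-labelled library (orange). Cells right of the dashed line, from 2 UMIs, were counted as Slc26a4 AT2 cells, 59.7% and 55.6% of all, and no gap separates them from cells with 1 UMI.

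The AT2 states that the gates left out carried Slc26a4 as well. At least 2 UMIs were found in 89.4% of WT and 97.3% of KO-labelled AT2 cells with Cxcl3 and Cxcl5, where Slc26a4 stood at 2025 and 2699 CPM, against 1721 and 2090 CPM in the Slc26a4 AT2 cells. Retnla was also higher there, 3383 and 6553 CPM, as was Malt1, at 472 and 497 CPM against 290.6 and 304.8 CPM. AT2 cells with interferon-response genes had Slc26a4 at 1719 and 2502 CPM, Retnla at 3143 and 6583 CPM and Malt1 at 595 and 703 CPM. Lcn2, Cxcl1 and Tnfrsf9 were likewise higher in both of these states than in the Slc26a4 AT2 cells, with Lcn2 between 5973 and 6921 CPM. AT2 cells with genes of the transition towards AT1 cells had less Slc26a4, 1170 and 1306 CPM, and less Retnla, 1230 and 2811 CPM.

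The label of these cells names a type 2 activation, with Slc26a4, Retnla, Chil1 and Cxcl15 as markers, and these genes behaved unequally. All values of Slc26a4 AT2 cells against Slc26a4-zero AT2 cells follow from the choice of the cells by Slc26a4 and are descriptions. Retnla (ENSMUSG00000061100, chromosome 16 from 48842551 to 48844461) stood at 2086 against 270.2 CPM in the WT library, a log2 ratio of 2.95 (2.86 to 3.04). In the KO-labelled library it stood at 4621 against 159.7 CPM, a log2 ratio of 4.85 (4.77 to 4.94). Airway secretory cells had more Retnla than either, 5264 and 6966 CPM, and with barcodes of airway transcripts left out the log2 ratios were 4.15 and 5.40.

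Chil1 (chromosome 1 from 134182176 to 134190181) stood at 3653 against 2285 CPM in WT and 4216 against 1980 CPM in KO-labelled cells, log2 ratios of 0.68 and 1.09. Cxcl15 (chromosome 5 from 90794534 to 90803067) stood at 6866 against 6035 and 7165 against 5348 CPM, log2 ratios of 0.19 and 0.42. After thinning to 3000 UMIs, Chil1 was found in 99.6% of WT Slc26a4 AT2 cells and 96.6% of WT Slc26a4-zero AT2 cells, and Cxcl15 in 99.8% and 99.4%. Both were thus found in nearly every AT2 cell of either group, at graded levels, and of the 3 markers that the selection had not used Retnla differed most.

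Retnla was not in every cell. After thinning it was found in 55.9% (53.3 to 58.5) of WT and 71.1% (69.0 to 73.1) of KO-labelled Slc26a4 AT2 cells, in 15.1% and 16.9% of Slc26a4-zero AT2 cells and in 8.09% and 9.94% of mesenchymal cells. At full depth these shares were 64.2% and 77.4%, 22.9% and 25.2%, and 14.5% and 14.7%. The mesenchymal share was taken as a measure of free RNA, although the highest WT mesenchymal cell held 268 Retnla UMIs. After thinning, the Slc26a4-zero AT2 cells stood above the mesenchymal share by less than 10 percentage points. Levels differed by class: mesenchymal cells had 79.0 and 35.0 CPM of Retnla, endothelial cells 122 and 76.6 CPM and ciliated cells 206 and 207 CPM. Slc26a4-zero AT2 cells had 117 and 109 CPM with barcodes of airway transcripts left out. Cells with 100 or more Retnla UMIs were 28 of the WT and 153 of the KO-labelled Slc26a4 AT2 cells, 1.94% and 7.73%.

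Across all measured genes, 153 were at least 2-fold higher in Slc26a4 AT2 cells in both libraries and 34 at least 2-fold lower. These are 1.33% and 0.296% of the 11491 genes with 20 UMIs or more in each library, outside the genes of the selection. The WT library alone had 314 higher genes and the KO-labelled library alone 372, so the shared genes were 48.7% and 41.1% of each. Of the lower genes, 138 and 246, the shared ones were 24.6% and 13.8%. Some genes went in opposite directions: 71 of the 314 higher in WT were below 0 in the KO-labelled library. Of the 138 lower in WT, 32 were above 0 there. Over all 11491 genes the log2 ratios of the 2 libraries had a Pearson correlation of 0.45. The median log2 ratio of all genes was 0.02 in WT and -0.04 in KO-labelled cells. With a minimum of 100 UMIs per gene the counts were 85 and 9.

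After Retnla, the 4 highest genes by the smaller of the 2 ratios were Slc5a1, Tnfrsf9, Cxcl1 and Malt1. Slc5a1, the sodium-glucose transporter SGLT1, stood at 81.1 against 11.6 CPM in WT and 126.7 against 13.6 CPM in KO-labelled cells (log2 ratios 2.81 and 3.22). Tnfrsf9, the receptor 4-1BB, stood at 74.2 against 11.6 and 96.3 against 8.66 CPM (2.68 and 3.48). Malt1, the paracaspase that links receptors to NF-κB, stood at 290.6 against 60.3 and 304.8 against 53.8 CPM (2.27 and 2.50). Cxcl1, a neutrophil chemokine, stood at 69.4 against 11.9 and 51.8 against 6.80 CPM (2.55 and 2.93). The mesenchymal background of Slc5a1 was low. After thinning Slc5a1 was found in 20.4% and 27.7% of Slc26a4 AT2 cells, 4.27% and 4.19% of Slc26a4-zero AT2 cells and 0.163% of WT mesenchymal cells. It was in 0 of 362 thinned KO-labelled mesenchymal cells, which allows a share of up to 0.829%. Cxcl1, by contrast, was in 11.3% and 9.20% of Slc26a4 AT2 cells and in 40.5% and 33.4% of mesenchymal cells, which make it themselves.

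The next genes were a mixed group. Steap4, a metalloreductase of inflamed epithelium, had log2 ratios of 2.23 in WT and 2.90 in KO-labelled cells. Pim1, a kinase induced through STAT proteins, had 1.93 and 2.13, and Cish, a STAT-induced inhibitor of cytokine signalling, 1.90 and 1.67. Cd14, the co-receptor for lipopolysaccharide, had 1.61 and 2.71, from 311.2 against 101.8 CPM in WT and 482.6 against 73.6 CPM in KO-labelled cells. The secreted protein gene Metrnl had 1.86 and 2.31, the potassium channel subunit gene Kcnmb2 1.87 and 2.01, Fstl4 1.81 and 3.04, and the amino acid transporter gene Slc6a20a 1.64 and 2.41. The class I-like genes H2-Q6 and H2-Q7 (H2-Q7 had 1.91 and 2.45) are near-identical copies, so how reads were split between them is uncertain.

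**Figure D2:**
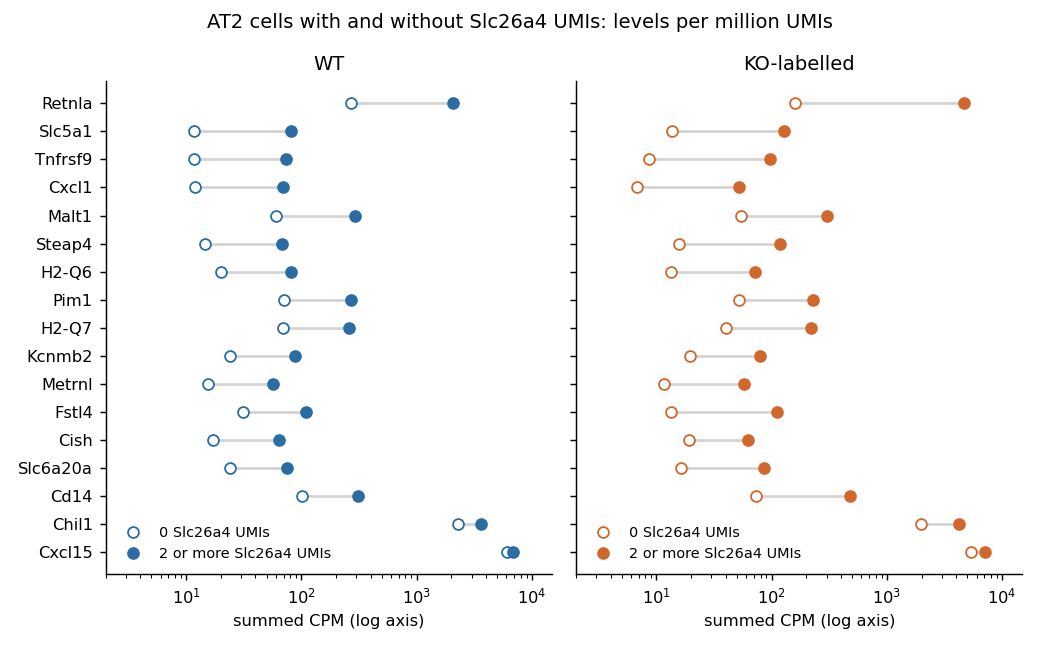
Summed CPM (log x axis) of the 15 genes highest in Slc26a4 AT2 cells by the smaller of both libraries' ratios, and of Chil1 and Cxcl15, in cells with 0 (open circles) and 2 or more (filled circles) Slc26a4 UMIs, WT left and KO-labelled right. Each line joins the values of 1 gene, and the lines of Chil1 and Cxcl15 are the shortest.

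At the other end, the 2 lowest genes were Scgb1a1 (log2 ratios -2.54 and -2.19) and Scgb3a2 (-1.68 and -2.23), both club-cell secretoglobins. Without barcodes of airway transcripts Scgb1a1 had -0.23 and -2.40, and Scgb3a2 turned to 0.38 and 0.02. The third was Bex2, a small X-linked gene, at 72.7 against 176.6 CPM in WT and 61.7 against 160.5 CPM in KO-labelled cells (-1.28 and -1.38). The other 7 were not past 2-fold in both libraries. Among them, Nedd4l, the ubiquitin ligase that lowers the epithelial sodium channel, had -0.81 in each library, Pde7b, a cAMP phosphodiesterase, -0.86 and -1.36, and Zbtb16, a glucocorticoid-inducible factor, -1.74 and -0.84.

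The type 2 response list had 30 genes, of which 10 had enough UMIs. Higher by 2-fold in both libraries were 4, Retnla, Cish, Socs1 and Il13ra2. Lower was 1, Fcgbp, on 12 and 15 UMIs in the Slc26a4 AT2 cells. Of all 11491 genes, 153 were 2-fold higher in both libraries and 34 lower. Socs1, an inhibitor of JAK kinases, stood at 9.60 against 2.72 CPM in WT and 7.88 against 1.70 CPM in KO-labelled cells. Il13ra2, the decoy receptor of IL-13, was near the detection limit, with 23 UMIs against 0 in WT and 36 against 2 in KO-labelled cells. The median log2 ratio of the 10 genes was 1.08 in WT and 0.85 in KO-labelled cells. Arg1, a classic IL-4 target of macrophages, stood at 7.25 against 5.43 and 3.86 against 2.94 CPM. Retnla was named as a marker from these cells, and the list is no independent evidence of its direction.

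Of 15 measured genes of the IL-4 and IL-13 receptor pathway, 4 were 2-fold higher in both libraries, beside 153 of all 11491 genes. These were Il4ra with Cish, Socs1 and Il13ra2, which this list shares with the previous one. Il4ra, the shared receptor chain, stood at 44.1 against 18.3 CPM in WT and 56.6 against 18.6 CPM in KO-labelled cells (log2 ratios 1.27 and 1.61). Stat6, the factor it activates, was close to equal at 31.0 against 32.6 CPM (-0.07, -0.37 to 0.24) and 28.4 against 33.7 CPM (-0.25, -0.49 to 0.00). Socs2 had 0.59 and 0.78 and Socs3 0.53 and 0.66.

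Part of the genes of IL-17, IL-1 and acute phase responses were also high. Of 21 measured, 7 were 2-fold higher in both libraries, beside 153 of all 11491 genes, and 0 were 2-fold lower. The medians were 0.52 and 1.29. Below 0 in both libraries were 3: Saa3 (-0.31 and -0.62), Il1r1 (-0.39 and -1.03) and Il17ra (-0.01 and -0.01). Besides Cxcl1, Steap4 and Cxcl2 (log2 ratios 2.92 and 1.92), Lcn2, the siderophore-binding lipocalin, was the most abundant at 3264 against 1383 CPM in WT and 3546 against 928 CPM in KO-labelled cells (1.24 and 1.93). C3, the central complement gene, had log2 ratios of 1.12 and 1.74. S100a8 and S100a9, made by neutrophils, stood at 15.5 and 25.4 CPM in WT Slc26a4 AT2 cells and 0.315 and 0.236 CPM in KO-labelled ones. 1 WT cell held 58.0% of the S100a9 UMIs.

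Of 14 chemokine and alarmin genes, 4 were 2-fold higher in both libraries, beside 153 of all 11491 genes. Il33, an alarmin that activates innate type 2 lymphocytes, stood at 1477 against 668.4 CPM in WT and 2160 against 674.4 CPM in KO-labelled cells (log2 ratios 1.14 and 1.68). Cxcl1 and Cxcl2 were a further pair, and Il6 had 1.74 and 1.69 at 5.76 and 4.49 CPM. Ccl20 went in opposite directions, -0.76 in WT and 4.53 in KO-labelled cells. A single WT Slc26a4-zero cell held 92.8% of its group's Ccl20 UMIs, and a single KO-labelled Slc26a4 AT2 cell 57.9%.

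Of 21 interferon and antigen presentation genes outside the selection, 4 were 2-fold higher in both libraries, beside 153 of all 11491 genes. Above 0 in both were 20, beside 3718 of all 11491 genes. B2m, the light chain of class I molecules, stood at 832.6 against 331.5 CPM in WT and 672.7 against 246.3 CPM in KO-labelled cells (log2 ratios 1.33 and 1.45). H2-K1, a class I heavy chain, had 1.02 and 1.24, Tap1, the peptide transporter, 1.05 and 1.13, and Ifi47 1.65 and 1.78. The exception was Isg15, at -0.26 and 0.96. The medians of 0.58 and 0.94 hold although cells with 3 or more of 6 interferon-response genes had been left out.

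Surfactant and lamellar body genes were close to level. Of 23 measured, 0 were past 2-fold in both libraries in either direction, and the medians were -0.05 and -0.10. Sftpd, a collectin of host defence, was among the highest at 5662 against 4039 CPM in WT and 6880 against 4148 CPM in KO-labelled cells (log2 ratios 0.49 and 0.73). Acoxl, an AT2-enriched gene of the acyl-CoA oxidase family, was the lowest at -0.71 and -0.91. Of 31 fatty acid and cholesterol genes, 0 were past 2-fold, with medians of -0.10 and 0.08.

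Most genes of the ion transport list were not past 2-fold. Of 26 measured, 2 were 2-fold higher in both libraries, beside 153 of all 11491 genes. These were Car2, a carbonic anhydrase that makes bicarbonate, at 1.07 and 1.49, and Ano1, the calcium-gated chloride channel, at 1.02 and 1.14. The higher genes Slc5a1, Kcnmb2 and Slc6a20a, named above, also serve transport but were not in this list. Kcnj15, a potassium channel gene, had 0.82 and 1.05. Aqp5, an apical water channel, stood at 188.7 against 289.2 CPM in WT and 165.6 against 302.1 CPM in KO-labelled cells (-0.62 and -0.87). The median of this list was 0.12 and 0.05.

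Clock genes and glucocorticoid-response genes were mostly lower. Of 21 measured, 16 were below 0 in both libraries, beside 3842 of all 11491 genes, with medians of -0.49 and -0.39. Past 2-fold lower in both was Nr1d1, the clock repressor REV-ERBα, at 9.38 against 22.0 CPM in WT and 6.70 against 24.0 CPM in KO-labelled cells. Bhlhe40 and Lcn2 of the same list were 2-fold higher. Transitional and injury genes had 1 of 25 past 2-fold higher (Cldn4, at 2.24 and 2.60 CPM), with medians of 0.08 and 0.07. Heat-shock genes had 2 of 18, Hspa1a and Hspa1b. Both counts stand beside 153 of all 11491 genes.

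**Figure D3:**
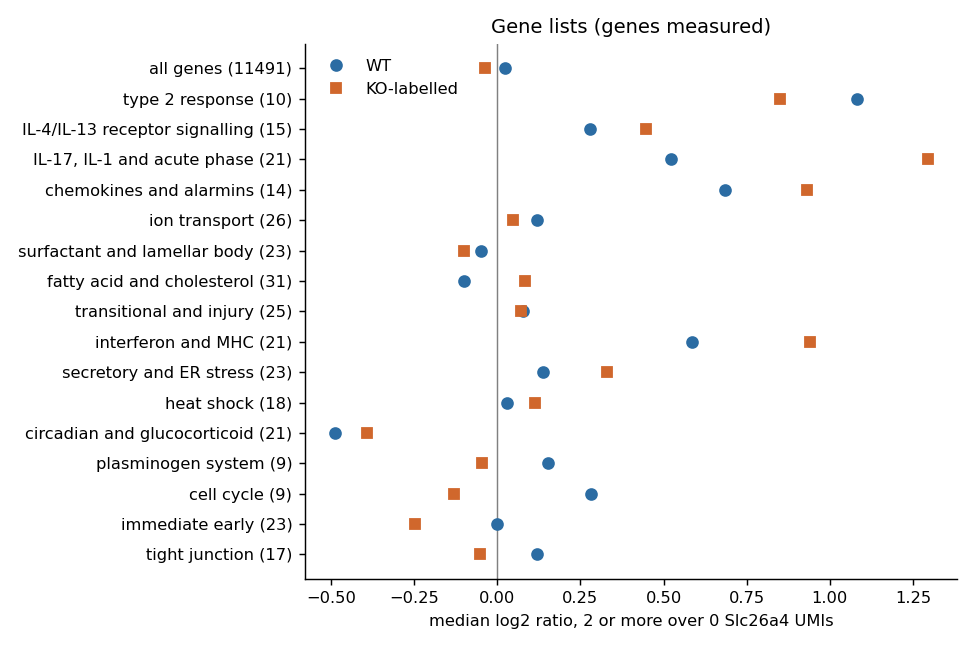
Median log2 ratio (x axis) of Slc26a4 AT2 cells over Slc26a4-zero AT2 cells for each gene list (y axis, with the number of genes measured), WT as circles and KO-labelled as squares. The type 2 response, acute phase, chemokine and interferon lists lie right of 0 in both libraries, and the circadian and glucocorticoid list left of 0.

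The same genes were graded with the number of Slc26a4 UMIs in the cell. From cells with 0 UMIs through 1, 2, 3 to 4, 5 to 9, 10 to 19 and 20 or more, Retnla in the WT library stood at 270.2, 423, 592, 1121, 1490, 2699 and 3893 CPM. In the KO-labelled library it stood at 159.7, 279, 951, 2013, 3221, 5348 and 7827 CPM. The libraries parted from cells with 2 UMIs on, where the KO-labelled level was the higher in each class. Barcodes of airway transcripts were not left out of these classes. They made up 4.66% and 3.83% of WT cells with 0 and 1 UMI, and 0.497% and 0.267% of KO-labelled ones. Without them Retnla in cells with 0 UMIs stood at 117 CPM in WT and 109 CPM in KO-labelled cells. Malt1 ran together in both, from 60.3 and 53.8 CPM at 0 UMIs to 522 and 519 CPM at 20 or more. Il33 went from 668 and 674 CPM to 2022 and 3006 CPM.

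In the other direction, Acoxl went from 630 and 650 CPM at 0 UMIs to 297 and 215 CPM at 20 or more, and Aqp5 from 289 and 302 CPM to 143 and 106 CPM. Abca3, the lamellar body lipid transporter that the selection also used, went from 872 and 862 CPM to 667.5 and 555 CPM, while Napsa, the surfactant protease, moved from 2004 and 2041 CPM to 1999 and 2146 CPM. Cell depth moved with these classes, from medians of 5747 and 5218 UMIs at 0 to 7122 and 7059 UMIs at 20 or more, and its part in them was not tested.

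**Figure D4:**
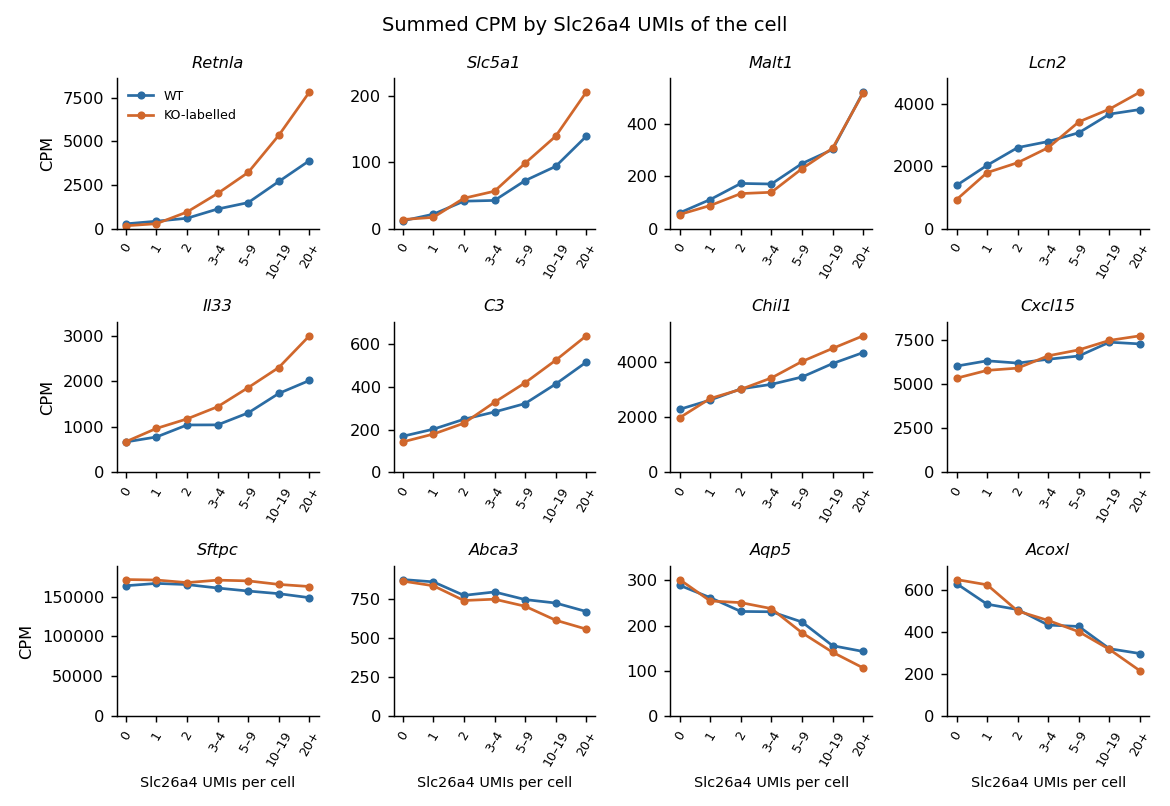
Summed CPM (y axes, from 0) of 12 genes by the number of Slc26a4 UMIs in the cell (x axes), WT in blue and KO-labelled in orange; each point sums the cells of 1 class. Retnla, Slc5a1, Malt1, Lcn2, Il33 and C3 are highest at 20 or more UMIs, and Acoxl, Aqp5 and Abca3 are lowest there.

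Within the Slc26a4 AT2 cells, most of the high genes examined were found more often in cells with Retnla. Only Cxcl2, and in WT Steap4, were found less often there, with intervals that overlapped. The intervals also overlapped for Cxcl1 in both libraries and, among others in WT, for Malt1, Tnfrsf9 and Cd14. Thinned cells with a Retnla UMI, 788 in WT and 1367 in KO-labelled, were set beside the 621 and 557 thinned cells without one. Slc5a1 was found in 26.3% and 32.6% of the former and in 12.9% and 15.6% of the latter. Kcnmb2 was found in 20.3% and 15.7% against 10.1% and 8.80%, Metrnl in 18.9% and 18.4% against 9.02% and 8.44%. Malt1 was found in 43.5% and 43.8% against 37.8% and 32.5%, Tnfrsf9 in 19.2% and 25.7% against 15.9% and 13.6%. Cd14, in 43.3% and 57.9% against 42.5% and 45.8%, differed mainly in the KO-labelled library. Cxcl1 differed little, with 12.2% and 9.66% against 10.1% and 8.08%. Cxcl2 was found in 5.20% and 4.39% against 7.41% and 5.57%. Steap4 had no common direction, with 14.3% against 19.3% in WT and 26.5% against 19.03% in KO-labelled cells.

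Slc26a4 AT2 cells with no Retnla UMI at full depth, 517 in WT and 447 in KO-labelled, still had Malt1 at 285.7 and 216 CPM and Lcn2 at 3568 and 3045 CPM. The Slc26a4-zero AT2 cells with no Retnla UMI had 58.5 and 57.9 CPM of Malt1 and 1333 and 905 CPM of Lcn2. With 1 to 9, 10 to 99 and 100 or more Retnla UMIs, Lcn2 stood at 3141, 3001 and 3874 CPM in WT and at 3237, 3711 and 4662 CPM in KO-labelled cells. Malt1 stood at 251.8, 323 and 451 CPM in WT and at 249.7, 342 and 464 CPM in KO-labelled cells. Both genes were thus high without Retnla and higher still in the cells with the most Retnla. In KO-labelled cells each class stood above the one before, and in WT cells it did not. Slc26a4 itself rose from no Retnla to 100 or more Retnla UMIs, from 1272 to 2404 CPM in WT and from 1219 to 3052.5 CPM in KO-labelled cells. Median depth was also highest in the top class, 7557 and 7830 UMIs against 6172 and 5809 UMIs without Retnla. The top class held only 28 WT cells, and the parts of Slc26a4 and depth were not tested.

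Between the libraries, more genes were lower than higher in the KO-labelled Slc26a4 AT2 cells. Of 12349 genes with 20 UMIs or more, 84 were at least 2-fold higher in the KO-labelled library (0.68%) and 452 at least 2-fold lower (3.66%). Most of the lower genes were sparse, since with 100 UMIs or more the counts were 24 and 40. Few barcodes also weighed on them. With the marked doublets left out, 32 WT and 14 KO-labelled Slc26a4 AT2 cells, the counts were 100 and 322. The median log2 ratio of all genes was -0.11. With TMM factors, a scaling that centres the bulk of genes, it was 0.03 and the counts were 124 and 324, so the share of higher genes among those past 2-fold went from 15.7% to 27.7%.

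Retnla stood at 4621 CPM in KO-labelled and 2086 CPM in WT Slc26a4 AT2 cells, a log2 ratio of 1.15 (1.12 to 1.17). In Slc26a4-zero AT2 cells the ratio was -0.76 (-0.88 to -0.63), and -0.10 (-0.27 to 0.08) without barcodes of airway transcripts. Slc26a4 itself had a ratio of 0.28 (0.25 to 0.31) in the cells it defines. Chil1 had 0.21 in Slc26a4 AT2 cells and -0.21 in Slc26a4-zero ones, and Cxcl15 0.06 and -0.17.

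Pglyrp1, which encodes a secreted bactericidal protein that binds peptidoglycan, stood at 85.7 CPM in KO-labelled against 13.5 CPM in WT Slc26a4 AT2 cells (log2 ratio 2.66, 2.40 to 2.94). It stood at 34.9 against 9.88 CPM in Slc26a4-zero AT2 cells (1.82). A single KO-labelled cell with 90 UMIs held 8.27% of it. After thinning it was in 17.6% of KO-labelled and 3.97% of WT Slc26a4 AT2 cells, beside 6.63% and 3.19% of mesenchymal cells. Pglyrp1 lies on chromosome 7 from 18871331 to 18890459, the same chromosome as Plaur. Whether this position has a part in the difference was not tested. Zbtb16 stood at 63.4 against 25.3 CPM (1.33, and 0.42 in Slc26a4-zero cells).

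Heat-shock genes were higher in the KO-labelled library in both groups of AT2 cells. Of all 12349 genes, 700 had intervals above 0 and 2745 below. Of 18 heat-shock genes measured, 15 had intervals above 0 and 0 below, with a median of 0.58 in Slc26a4 AT2 cells and 0.47 in Slc26a4-zero AT2 cells. Hspa8, a constitutive HSP70, stood at 1148 against 581.5 CPM (0.98), and 989 against 512 CPM in Slc26a4-zero cells. Hspa1b, an inducible HSP70, had 0.87. Cmss1 (1.14), Ide (0.95) and Camk1d (0.84) were likewise high in Slc26a4-zero AT2 cells, at 1.23, 1.16 and 0.80. Mbd1, which binds methylated DNA, had 0.87 and 0.35.

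Of 31 fatty acid and cholesterol genes, 21 had intervals above 0 in Slc26a4 AT2 cells and 4 below, beside the 700 and 2745 of all 12349 genes. The median was 0.31, and 0.12 in Slc26a4-zero AT2 cells. Fdps, the farnesyl diphosphate synthase of the cholesterol pathway, stood at 231.2 against 129.9 CPM (0.83, 0.74 to 0.93), with 0.14 in Slc26a4-zero cells. Mvd, the mevalonate decarboxylase, had 0.82 and 0.02. Elovl1, a fatty acid elongase, went the other way, at -0.59 and -0.58. Of 24 secretory and ER stress genes, 15 had intervals above 0 and 1 below, beside the same counts of all genes, with a median of 0.14, and -0.01 in Slc26a4-zero AT2 cells. Hspa5, the ER chaperone BiP, had 0.46 in Slc26a4 AT2 cells and 0.02 in Slc26a4-zero ones.

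Lower in the KO-labelled library were Scgb3a2 (-1.51) and Scgb1a1 (-0.72). Without barcodes of airway transcripts they stood at -3.72 and -2.41, and Scgb1a1 at 1295 CPM in WT and 244 CPM in KO-labelled cells. A background of Scgb1a1 differed in the same direction: after thinning it was found in 90.6% of WT and 42.0% of KO-labelled Slc26a4 AT2 cells and in 92.97% and 37.0% of mesenchymal cells. Next were Pde7b at 103.1 against 195.2 CPM (-0.92, -1.02 to -0.82), with -0.42 in Slc26a4-zero cells, and Cirbp, the cold-inducible RNA-binding protein, at 31.6 against 57.1 CPM (-0.85 and -0.69). Adamts1, a secreted protease, had -0.72 and -0.66, and Inpp4b, a lipid phosphatase, -0.71 and -0.16. Naaladl2 (-0.70), Pam (-0.68), Bmp5 (-0.68) and Osgin1 (-0.67) closed the list. Of 15 cell cycle genes, 7 were 2-fold lower in the KO-labelled library, beside 452 of all 12349 genes (3.66%). Mki67, the proliferation marker, lay in 15 WT and 14 KO-labelled cells with 64 and 14 UMIs, and the 5 highest WT cells held 79.7% of its UMIs, 94.1% of those of Ube2c, 88.9% of those of Cenpf and 80.5% of those of Birc5. Cdk1 lay in 4 WT cells.

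**Figure D5:**
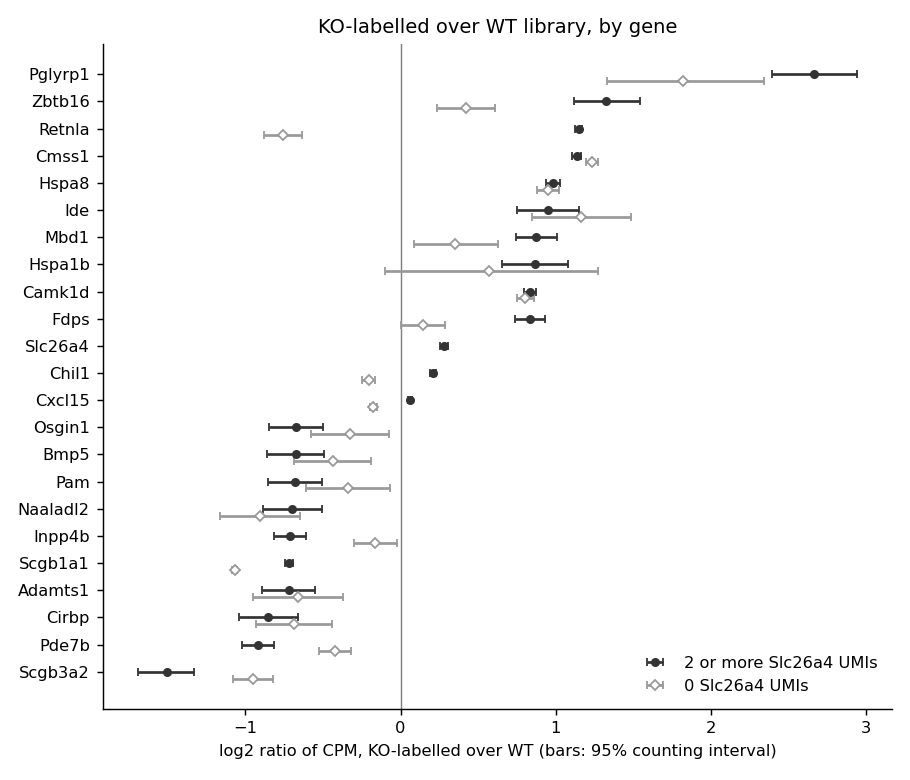
Log2 ratio of CPM, KO-labelled over WT library (x axis), for the genes furthest apart and the markers (y axis), in Slc26a4 AT2 cells (filled circles) and Slc26a4-zero AT2 cells (open diamonds); bars are 95% counting intervals. Retnla lies at 1.15 in the former and -0.76 in the latter, while Cmss1, Hspa8 and Camk1d nearly coincide.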

How the data were processed

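CD45.2-negative lung cells were measured in 2 libraries, 1 per genotype. The deposited matrices hold raw UMI counts per gene and barcode, written by the authors with Cell Ranger 7.0.0 per the file headers (7.0.0 and 7.1.0 and build mm10 per the submitters' processing notes). How barcodes were chosen is not given in the sources used here. Members and gene lists were chosen with earlier results of these data known. UMIs were summed over cells of a group and divided by the group's total. Intervals are exact: Poisson for CPM, conditional binomial for ratios and Clopper-Pearson for shares. They cover counting error only, and no test was run. A gene needed 20 UMIs over both groups compared (in each library where both count), and a side at 0 stood at a floor of 3 UMIs.

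Genes named are the markers and Plaur, the 15 highest and 10 lowest against Slc26a4-zero AT2 cells, the 10 highest and 10 lowest between libraries (100 UMIs and 50 CPM in the higher group), and up to 4 highest and 4 lowest per list. Left out of the ranks were mitochondrial, ribosomal, haemoglobin, immunoglobulin, sex-linked and provisional genes, genes of the selection, and genes over 10 times higher in another cell type. Genes shown by Slc26a4 class or by Retnla were chosen after their values were seen. Scrublet (scanpy 1.11.5, expected share 8%) marked doublets in an alternative. TMM factors came from edgeR 4.0.16, used for scaling only. The ratio procedure was tested on simulated data. Gene positions are from GENCODE M21 (GRCm38).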

Additional observations from a re-analysis of the deposited data

How the results depend on the processing

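The share of Slc26a4 AT2 cells in the WT and KO-labelled libraries was 71.6% and 66.1% with 1 UMI, 45.9% and 45.1% with 4 UMIs, and 47.1% and 47.5% in thinned cells, where the order turned. The 153 higher and 34 lower genes against Slc26a4-zero AT2 cells became 85 and 9 with a minimum of 100 UMIs, all of them among the first, and 252 and 169 with none. With 4 Slc26a4 UMIs 53 were lower. Between libraries, the 84 higher and 452 lower genes became 24 and 40 with 100 UMIs and 461 and 1795 with no minimum, and 255 were lower in thinned cells. In the type 2 response list the 1 lower gene, Fcgbp, became 0 with 1 Slc26a4 UMI, with marked doublets removed, in thinned cells, with means over cells, with 100 UMIs, and against cells with 0 or 1 UMI. Retnla, Cish and Socs1 were past 2-fold in all 15 alternatives. The remaining 80 of 102 alternative counts and shares stayed within their interval or 1.5 times.

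Of 1149 alternative values of 80 gene ratios, 3 reversed, all of Scgb3a2: 0.86 in WT with 7 of 8 AT2 markers, and 0.38 and 0.015 in WT and KO-labelled cells with airway barcodes left out, an alternative chosen after seeing the data. Of the other values, 150 were classed as moved and 996 as the same. With the reversed ones included, 31 values moved by over 1.5-fold, most of them of the secretoglobins. Retnla in WT ranged from 2.32 with depth-weighted comparison cells to 4.15 without airway barcodes. The causes were not tested. No paired analysis was possible because there is 1 library per genotype. Sparse genes, under 100 UMIs, limit the counts most.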
